A study of Saccharomyces cerevisiae and Saccharomyces paradoxus with 173 samples.

Results

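YPS2066 is a natural strain of the budding yeast Saccharomyces cerevisiae, followed at 18 times from 0 to 345 min after release from a pheromone arrest. Its 18 samples were taken by the strain name in the labels, beside 137 samples of 8 other S. cerevisiae strains and 18 of YPS3395. The comparison group was those 8 strains (YPS183, YPS2055, YPS2060, YPS2067, YPS2073, YPS2079, YPS3060 and YPS3137). YPS3395 entered the fit only to estimate the scatter. Every strain was treated alike, per the labels' protocols. One culture of each strain grew in synthetic dextrose (SD) minimal medium, was arrested by alpha factor, the mating pheromone, late in G1, washed, and returned to SD medium at 18°C in 18 flasks, 1 for each time. RNA of each flask was hybridised on 2-colour spotted oligonucleotide arrays against RNA of unsynchronised YPS183 cells grown in rich YPD medium. No allele or gene deletion is named for any strain. With 1 culture per strain, p-values rest on the scatter of flasks around smooth time curves and do not cover the spread between cultures.

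Alpha factor acts on a cells through the receptor Ste2 and a kinase cascade that turns on mating genes and, through Far1, holds G1 cyclin activity down. After release, the factors SBF and MBF drive a wave of G1/S genes for budding and DNA replication, histone genes follow in S phase, and Mcm1 with Fkh2 drives the CLB2 cluster in G2 and M. Iron uptake in yeast is under the factors Aft1 and Aft2, which turn on siderophore transporters, surface reductases and the Fet3 and Ftr1 uptake pair when iron is short.

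Values are log ratios to the reference, taken as log2 since the base is not stated; the direction is likely sample over reference, since pheromone genes were high at 0 min. The 18 samples of YPS2066 rest on 32 arrays, and those at 24, 63, 135 and 251 min on 1 array each, in 1 dye orientation. The spread (SD) over all 6172 genes was lowest at 48 min, 0.43, and highest at 345 min, 1.12. Arrest by alpha factor needs a cells, and the mean of the 6 a-specific genes was 0.90 at 0 min. Of 4 alpha-specific genes, only MF(ALPHA)1 was found by name, at log2 ratios from -0.06 to 0.80. Each sample was RNA of a whole culture, so fewer cells in a phase and less RNA per cell cannot be told apart.

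The mating genes were high in YPS2066 at 0 min, and MFA1 among them stayed high to 63 min. As a list they were not late: 8 of 26 genes had a positive lag and 17 a negative one, with a median of -7.5 min, and the lag of the list mean was -12 min (the lag is the shift in time that best aligned YPS2066 with the mean of the other strains). MFA1, one of the genes for the a-factor pheromone, had log2 ratios of 1.71, 0.76, 0.80 and 1.03 at 0, 24, 48 and 63 min in YPS2066. From 87 min on it lay between -1.81 and -4.69. The mean of the other strains was -0.54 ± 0.89 over 0 to 63 min (SD, n = 8 strains), against 1.08 in YPS2066. AGA2, the binding subunit of a-agglutinin, fell from 0.77 at 0 min to -0.42 at 24 min. It was at -0.57 at 63 min and -2.03 at 87 min. For MFA1 and AGA2 the largest step thus lay between the 63 and 87 min flasks. FAR1, the cyclin kinase inhibitor that acts in the arrest, fell in several steps, with 0.75 at 0 min, -0.09 at 24 min, -0.37 at 63 min, -1.10 at 87 min and -1.88 at 111 min. The curves of these 3 genes differed in shape from the mean curve of the other strains by limma's F test, with adjusted p = 0.00105 for MFA1, 0.000315 for AGA2 and 0.0162 for FAR1.

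Of the 26 measured genes of the pheromone response list, 12 varied with time in YPS2066, while 6.68% of all genes did; calls needed an adjusted p under 0.05 in limma's F test and a fitted range of at least 1. Of the same 26 genes, 5 differed in shape, beside 0.924% of all genes, with a deviation of at least 1 required. The largest range of all was that of AGA1, the anchor subunit of a-agglutinin, at 6.17 log2 units, with 2.42 at 0 min and -4.08 at 345 min. BAR1, the protease that degrades alpha factor, was at 0.59 at 0 min and at or below -1.09 in all later samples. FUS1, needed for cell fusion, had 0.90 at 0 min and -0.31 at 24 min, so this gene dropped at once. MFA1, MFA2 and BAR1 no longer passed the shape test after quantile normalization between samples, nor did MFA1 and BAR1 with samples of both dye orientations alone.

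**Figure D1:**
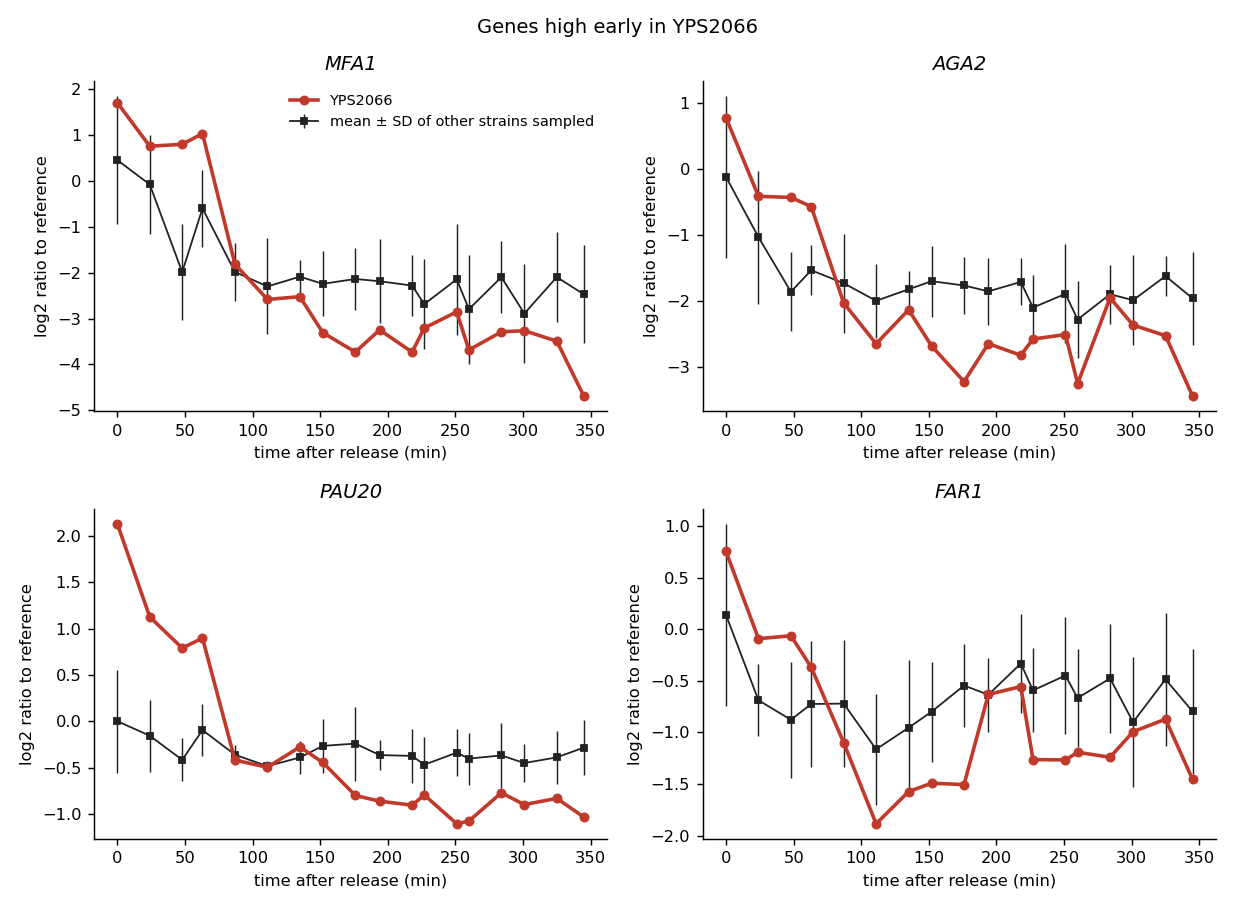
Log2 ratio to the reference (vertical axes) against minutes after release (horizontal axes) for MFA1, AGA2, PAU20 and FAR1. Red points are the 18 YPS2066 samples; black squares are means of the 6 to 8 other strains sampled at that time, with bars of 1 SD over strains. In YPS2066 MFA1, AGA2 and PAU20 have their largest drop between 63 and 87 min, with MFA1 at 1.03 and at -1.81, while FAR1 falls in several steps.

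The G1/S wave came late in YPS2066. The mean log2 ratio of the 29 measured replication and repair genes was 0.04, 0.01 and 0.17 at 24, 48 and 63 min in YPS2066. It was highest at 87 min, at 0.52, and still 0.39 at 111 and at 135 min. Over the other strains, the mean was already 0.26 at 24 min and had fallen to 0.05 at 135 min. In YPS2066 the list fell to -0.32 at 194 min, then rose again to 0.41 at 260 min. POL30, the replication clamp, followed this course, with 0.44 at 48 min, 1.44 at 87 min, -0.82 at 194 min and 1.19 at 251 min. CDC9, the DNA ligase of replication, had 0.05 at 48 min and 0.99 at 87 min. RNR1, the large subunit of ribonucleotide reductase, was an exception in its start: it was at -2.20 at 0 min and already at 0.68 at 24 min, and its highest value was 1.08 at 135 min.

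For single genes, the lag was the shift, between -90 and 90 min, that best aligned the YPS2066 values with the mean profile of the other strains. Of the 29 replication genes, 28 were later in YPS2066, with a median lag of 30 min and quartiles of 24 and 33 min. Of the 23 budding and cyclin genes, 18 were later, again with a median of 30 min. Over all 6172 genes, 53.7% had a positive lag, with a median of 9 min and quartiles of -42 and 48 min. The genes share the same 18 flasks and are not independent. For the list means, the lag was 33 min for replication, with 6 of 8 other strains smaller, and 42 min for budding, with 7 of 8 smaller. Leaving out any 1 sample or strain kept these lags at 30 to 33 and 36 to 42 min. The time stretch that best aligned the list mean, where 1 means the pace of the other strains' mean, was 1.14 for replication (0.64 to 1.16 in the other strains). It was 1.56 for budding (0.8 to 1.4 in the others) and 1.46 for the CLB2 cluster (0.6 to 1.16 in the others), in both beyond all 8 other strains. A stretch fitted from 0 min does not tell a late start from a slow pace.

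Of the replication list, 7 of 29 genes varied with time in YPS2066, and 8 of 23 of the budding list, beside 6.68% of all genes. In order of fitted peak, the replication genes were RNR1 at 70 min, ASF1, a histone chaperone, at 100 min, POL30 at 106 min, the polymerase subunit POL2 and CDC9 at 110 min, the chromatin assembly subunit CAC2 at 113 min, and CDC21, thymidylate synthase, at 117 min. Among the budding genes, TOS4 peaked at 112 min, the cyclin PCL1 at 119 min, CSI2 at 123 min, the kinase HSL1 at 128 min, the factor HCM1 at 129 min and the repressor NRM1 at 134 min. CLN2, a G1 cyclin, had its fitted peak at 253 min, in the later wave, and MNN1, a Golgi mannosyltransferase, at 345 min. CLN2 was at 0.48 at 87 min and 0.76 at 260 min in YPS2066, with -0.85 at 48 min and -1.10 at 194 min. Its values thus came in 2 waves.

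**Figure D2:**
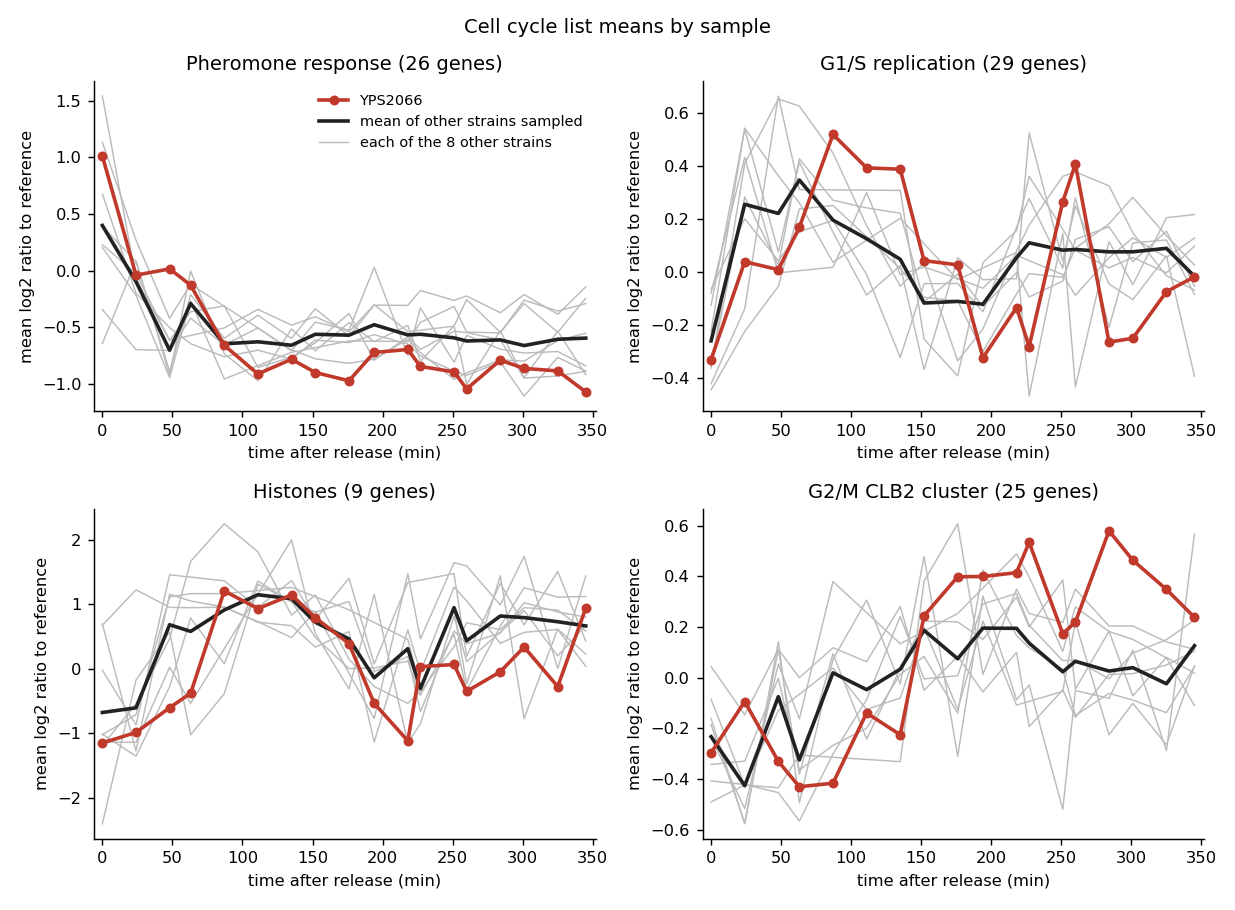
Mean log2 ratio to the reference over the genes of 4 lists (vertical axes) against minutes after release. Red points are YPS2066 samples, grey lines the 8 other strains and black lines the mean of the strains sampled. The replication list of YPS2066 is highest at 87 min, 0.52, and rises again to 0.41 at 260 min, when the CLB2 cluster is lower than at 227 and 284 min.

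The interval between the 2 G1/S waves was measured apart from the time of the first wave. The first local maximum of the fitted replication curve lay at 109 min in YPS2066, later than in each of the 8 other strains, where it lay at 49 to 95 min (median 66.5 min). The latest of these, 95 min, is that of YPS2067. This strain had no sample between 63 and 135 min, so its fitted maximum lies in an unsampled gap. For the budding list the first maximum lay at 122 min in YPS2066 and at 54 to 101 min in the others (median 70 min). With 9 strains, an exact permutation test gives p = 0.111 for both lists; this is the smallest p that 9 strains allow, so 0.05 could not be reached. The next maximum was not late: it lay at 254 min in YPS2066 and at 160 to 298 min in the others for replication. The interval was 145 min in YPS2066, with a median of 177 min and a range of 111 to 219 min in the others (exact permutation p = 0.778). For budding it was 131 min in YPS2066, with a median of 172 min in the others (exact permutation p = 0.667). The stretch values of budding and the CLB2 cluster were thus above those of the other strains, and the interval between waves was within their range, so these measures do not settle whether the cycle of YPS2066 was slow. The interval was chosen as a measure after the profiles were seen. With 5 degrees of freedom in the spline, the first replication maximum of YPS2066 moved to 92 min and its interval to 192 min. The other strains were not refitted in this way. Against their values at 7 degrees of freedom, 92 min is inside the range and 192 min above the median.

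**Figure D3:**
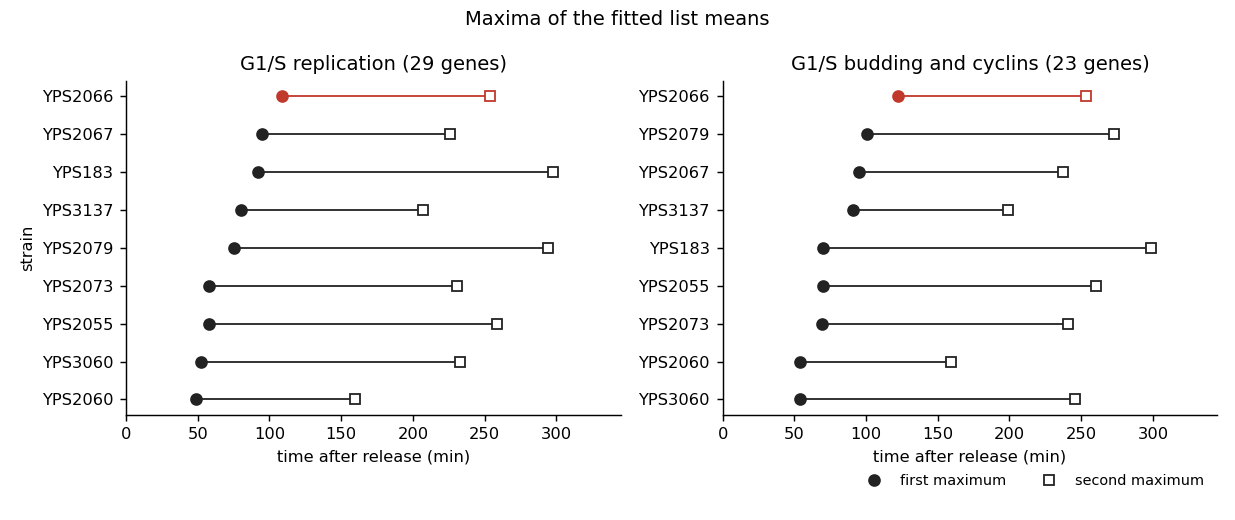
The first (filled circles) and the next (open squares) maximum of the fitted list mean in minutes after release (horizontal axes), 1 row per strain, with YPS2066 in red. The first maximum of YPS2066, at 109 min for replication and 122 min for budding, is the latest of the 9 strains, and its next maximum, at 254 and 253 min, lies within the others' range. YPS2067 had no sample between 63 and 135 min.

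Histone genes rose with the replication genes and had a lower mean level than elsewhere over the 12 times shared by all strains. The mean of the 9 histone genes was -1.15, -0.99, -0.60 and -0.38 at 0, 24, 48 and 63 min in YPS2066 and 1.20 at 87 min. The mean of the other strains was 0.68 at 48 min. The first maximum of the fitted curve was at 121 min in YPS2066, later than in 6 of 8 other strains, with a median of 102 min and a range of 55 to 141 min in the others (exact permutation p = 0.556). By single-gene lag the histones were not clearly late: 4 of 9 were later in YPS2066 and 5 earlier, with a median of -6 min. Over all genes 53.7% were later, with a median of 9 min. The lag of the histone list mean was 21 min, and -9 to 24 min with 1 sample or strain left out. Only HTB1, HTB2 and HTA1, genes for H2B and H2A, passed the test of variation with time, which 6.68% of all genes passed. Over the 12 times shared by all strains, the list mean was -0.14 in YPS2066 and 0.13 to 1.01 in the other strains. All 9 genes were lower in YPS2066 than in every other strain, while 9.59% of all genes were. Their median level difference was -0.52, beside -0.01 over all genes. None reached the size of 1 required for a call. By the adjusted p alone 5 of 9 were lower, as were 7.63% of all genes. The shared times leave out 63, 87, 111, 152, 194 and 227 min. At 87, 111 and 152 min the list mean was 1.20, 0.93 and 0.79 in YPS2066 and 0.84, 1.16 and 0.77 over the others. At 63, 194 and 227 min it was -0.38, -0.535 and 0.03 in YPS2066 and 0.68, -0.03 and -0.10 over the others. The part of timing in the lower level was not tested. HTA1 had its lowest log2 ratio at 218 min, -1.16, its median at 0.30 and its highest at 135 min, 1.78. The neighbouring flask at 227 min was at 0.28, so the low at 218 min rests on 1 flask.

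By lag, the G2/M genes of the CLB2 cluster also came later in YPS2066, but by fitted peak not all did. The list mean had its fitted peak at 300 min, against a median of 210 min in the others. For CLB2 and SWI5 the fitted peaks were at 201 and 189 min, against medians of 218 and 282 min in the others. CLB2, the main mitotic cyclin, stayed between -1.11 and 0.69 through 135 min in YPS2066 and then ran from 1.65 at 152 min to 2.32 at 218 min. It dipped to 1.25 at 251 min and reached 2.41 at 284 min. The dip fell in the same samples, 251 and 260 min, in which CLN2 and the replication list rose. CHS2, the chitin synthase of the primary septum, was at -1.12 at 135 min, 0.68 at 152 min and 2.16 at 325 min. CDC5, the polo kinase, had 0.78 at 152 min and 1.24 at 284 min. Of the 25 genes, 24 had a positive lag, beside 53.7% of all genes, with a median of 60 min. Of the same 25, 10 varied with time, beside 6.68% of all genes. The lag of the list mean, 72 min, was larger than in each of the other strains (-90 to 21 min), but it fell to 27 min when the 0 min samples were left out or samples with older array prints were left out. It was also 27 min without YPS2060, without YPS3060 or without the 135 min sample of YPS2066, and 30 min without its 87 or 284 min sample. Among the 10 genes, CLB1, SWI5, HST3 and ALK1 had fitted peaks at 188 to 191 min and CLB2 and IQG1 at 201 and 209 min. DBF2, CHS2, SRC1 and CDC5 had theirs at 297 to 307 min, the time of the later wave. CLB2 and CHS2 were the 2 genes of the list called different in shape, beside 0.924% of all genes. No gene of the list was called higher or lower in level. Its median level difference was 0.13, and 9 of 25 genes were higher than in all 8 other strains, while 9.41% of all genes were.

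PIR3, a cell wall protein, was called higher in level in YPS2066, by 1.14. EGT2, a cell separation gene, was at -0.58 at 218 min and -2.46 at 227 min. It rose to -0.94 at 251 min and -0.54 at 260 min in YPS2066. The neighbouring flasks at 218 and 227 min thus differed for this gene. Among the 10 early G1 genes, only the helicase subunit MCM3 varied, with its highest log2 ratio, 0.61, at 63 min. CLN3, the cyclin that starts the G1/S program, was above the mean of the 8 other strains by 0.54 ± 0.09 (SE, limma adjusted p = 2.4e-06), under the size for a call. Its mean over shared times was 1.48 in YPS2066 and at most 1.24 in the others. Of all genes, 9.41% were above all 8 other strains. Of the 20 S/G2 genes, only NUF2, a kinetochore subunit, varied, with a fitted peak at 299 min. Of all genes, 6.68% varied.

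Across all genes, 412 varied with time in YPS2066. Fitted peaks fell within 30 min for 74 of them, later but within 90 min for 97, then within 150 min for 54, within 210 min for 38, within 270 min for 39 and within 345 min for 110. The early windows held most copies of repeated families: 39 frames of Ty elements, 21 Y' frames of chromosome ends and 17 seripauperin (PAU) genes were among the 412. Arrays cannot tell such near-identical copies apart. The Ty frame YMR045C was at -1.50 at 48 min and -7.68 at 345 min, and the spread over all genes grew over the same samples; its part in such falls was not tested. After quantile normalization 245 genes were called, 191 of them among the 412, and with samples of both dye orientations alone 183 were, 172 of them among the 412.

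Among single genes, PHO84, the high-affinity phosphate transporter, fell to -5.45 at 345 min, against 0.27 at 24 min. MRH1, a membrane protein, was at -2.97 at 0 min and 2.54 at 345 min. MEP2, the ammonium transporter, had 0.60 at 48 min and 5.18 at 345 min, and CSS1 -0.12 at 63 min and 4.65 at 345 min. CUP1-1, the copper metallothionein, was highest at the start and had a fitted range of 3.92. GSC2, a glucan synthase of stress and sporulation, also peaked at 0 min, with a range of 3.88. Among genes peaking after 90 and within 150 min, HTB1 and HTB2 were joined by TOS6, a cell wall gene of the G1/S program, at -0.63 at 63 min and 1.73 at 87 min, and SEO1, a permease, at 2.95 at 135 min. Among those peaking up to 210 min came SIT1 and TIS11 of the iron list, CLB2 and EMP70, and up to 270 min TIR3, MET2, SDL1 and YER053C-A. MET2, an enzyme of methionine synthesis, had 0.61 at 63 min and 1.63 at 87 min.

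Iron uptake genes were higher in YPS2066 than in the other strains in its later samples. The mean log2 ratio of the 23 measured genes was 0.29 ± 0.07 over the 4 samples to 63 min (SD over samples) in YPS2066, and 0.29 ± 0.07 in the other strains (SD, n = 8 strains). It was 0.35 at 87 min and 1.02 at 111 min, and from 152 min on between 1.28 and 1.66. From 111 min on the mean was 1.42 in YPS2066 and 0.42 ± 0.19 in the others. Over the shared times the list mean was 1.17 in YPS2066 and 0.24 to 0.66 in the others, without overlap. Of the 23 genes, 9 were called higher in level, while 0.405% of all genes were. Their median level difference was 0.68, and 19 of the 23 were above all 8 other strains, while 9.41% of all genes were. None was called lower. In 14 genes the level varied with time, beside 6.68% of all genes, and 8 differed in shape, beside 0.924%.

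By role, the siderophore transporters showed the largest differences. ENB1, which takes up enterobactin, was between -0.47 and 0.37 through 87 min in YPS2066, then 1.40 at 111 min and 2.83 at 325 min; its level difference was 1.93 ± 0.09 (SE; limma adjusted p = 5.41e-36). Its mean over shared times was 1.77 in YPS2066 and -0.56 to 0.11 in the others. ARN2 was at 0.25 at 87 min and 4.02 at 325 min, with a difference of 1.77 ± 0.12. ARN1 differed by 1.39 ± 0.13 and SIT1 by 1.16 ± 0.15. TIS11, an RNA-binding protein that destabilises transcripts of iron-using proteins, went up in 1 step, with 0.41 at 87 min and 2.08 at 111 min, and differed by 1.29 ± 0.06. Of the surface reductases, FRE1 differed by 1.13 ± 0.13 and FRE3 by 1.03 ± 0.10, while FRE2 with 0.57 and FRE6 with 0.59 were under the size for a call. The permease FTR1 differed by 1.18 ± 0.19 and its partner oxidase FET3 by 0.88 ± 0.16. Among the cell wall mannoproteins, FIT3 differed by 1.04 ± 0.11, FIT2 by 0.68 ± 0.06 and FIT1 by -0.10 ± 0.08. The copper transporter CCC2 differed by 0.85, the heme oxygenase HMX1 by 0.59, the biotin transporter VHT1 by 0.61, the vacuolar transporter SMF3 by 0.36, the mitochondrial carrier MRS4 by 0.25, the reductase FRE4 by 0.23 and the copper chaperone ATX1 by 0.19. FRE5 with 0.02 and ISU1 with 0.08 were close to the other strains. The 14 iron-using proteins showed no call, with a median difference of -0.09. SMF1, a manganese transporter that is no member of the list, lay below 0 in all 18 samples, from -2.12 to -0.85, with a difference of -1.46 ± 0.10.

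**Figure D4:**
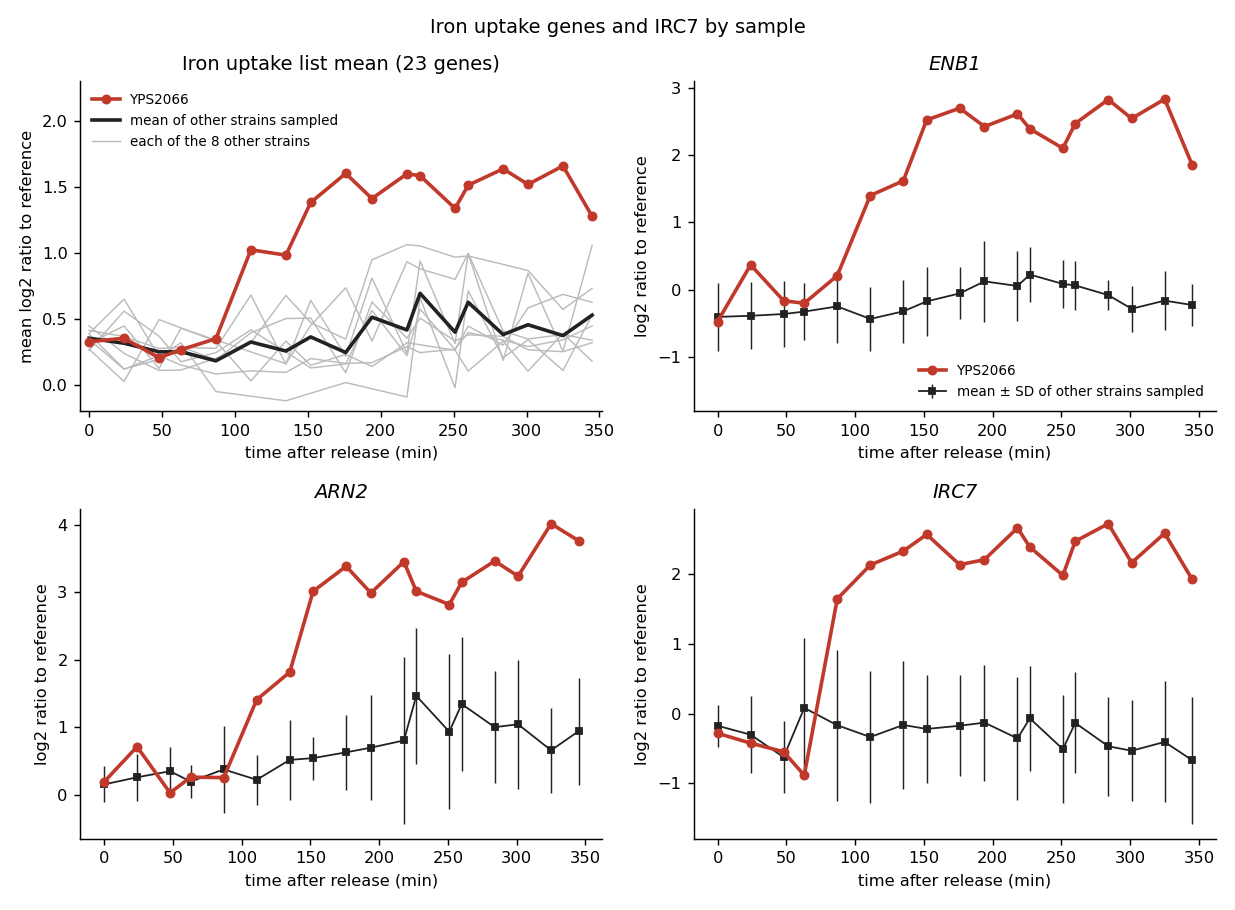
Log2 ratio to the reference against minutes after release for the iron uptake list mean and for ENB1, ARN2 and IRC7. Red points are YPS2066 samples; grey lines are the 8 other strains, black the mean of the strains sampled, with bars of 1 SD over strains for single genes. YPS2066 lies with the other strains to 63 min and above them from 111 min on, where its list mean averages 1.42 and theirs 0.42.

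In level over the shared times, 25 genes were higher and 32 lower in YPS2066 than the mean of the 8 other strains (adjusted p under 0.05 and a difference of at least 1), which is 0.405% and 0.518% of 6172. Of the 25, 22 were above every other strain; of the 32, 14 were below every one. When each strain was reduced to 1 mean, so that the spread between strains set the error, no gene passed in either direction (0.0% of genes). In that test limma gave 178 genes an unadjusted p under 0.05, and the lowest adjusted p was 0.0977, for ENB1. The calls above thus state that YPS2066 differs from the other strains' mean beyond flask scatter, and not beyond the spread between strains.

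Among the higher genes, the largest difference was that of IRC7, a cysteine-S-conjugate lyase, by 1.98 ± 0.11. It was at -0.28, -0.42, -0.55 and -0.89 to 63 min in YPS2066, at 1.65 at 87 min, and at 1.93 to 2.73 from 111 min on. Of the others, 1 strain had a mean of 1.07 and the lowest was -0.94. SNZ2 and SNZ3, near-identical genes of vitamin B6 synthesis, differed by 1.52 ± 0.07 and 1.62 ± 0.11, and another strain was as high, with means of 2.15 and 2.10 beside 2.07 and 2.04 in YPS2066. KHA1, a cation antiporter, differed by 1.51 ± 0.08 and TIR3, a cell wall mannoprotein of cold and low oxygen, by 1.26 ± 0.09. The near-identical aryl-alcohol dehydrogenase frames AAD4 and YFL057C differed by 1.25 ± 0.12 and 1.35 ± 0.11, and YNR064C by 1.46 ± 0.10. ZRT1, the zinc transporter, differed by 1.07 ± 0.20 and reached 4.85 at 345 min. DAL4, the allantoin permease, differed by 1.16 ± 0.10.

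Of the 32 lower genes, 22 were Y' frames, which cannot be told apart; YIL177C differed by -2.34 ± 0.22 and YBL113C by -2.20 ± 0.23. Among the 17 Y' genes of the list, 16 were called lower, while 0.518% of all genes were. But 1 other strain was as low, with a list mean of -3.31 beside -3.30 in YPS2066. HXK1, a hexokinase, differed by -1.20 ± 0.28, GNP1, the glutamine permease, by -1.17 ± 0.18, TIP1, a cold-shock cell wall protein, by -1.19 ± 0.32, and GPH1, glycogen phosphorylase, by -1.005 ± 0.185. In each of these 4, at least 1 other strain had as low a mean, and each call was lost when only the 4 other strains without older prints were compared. YDL124W, a reductase, was below every other strain, by -1.11 ± 0.15 against their mean, and its call was lost in that comparison too.

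**Figure D5:**
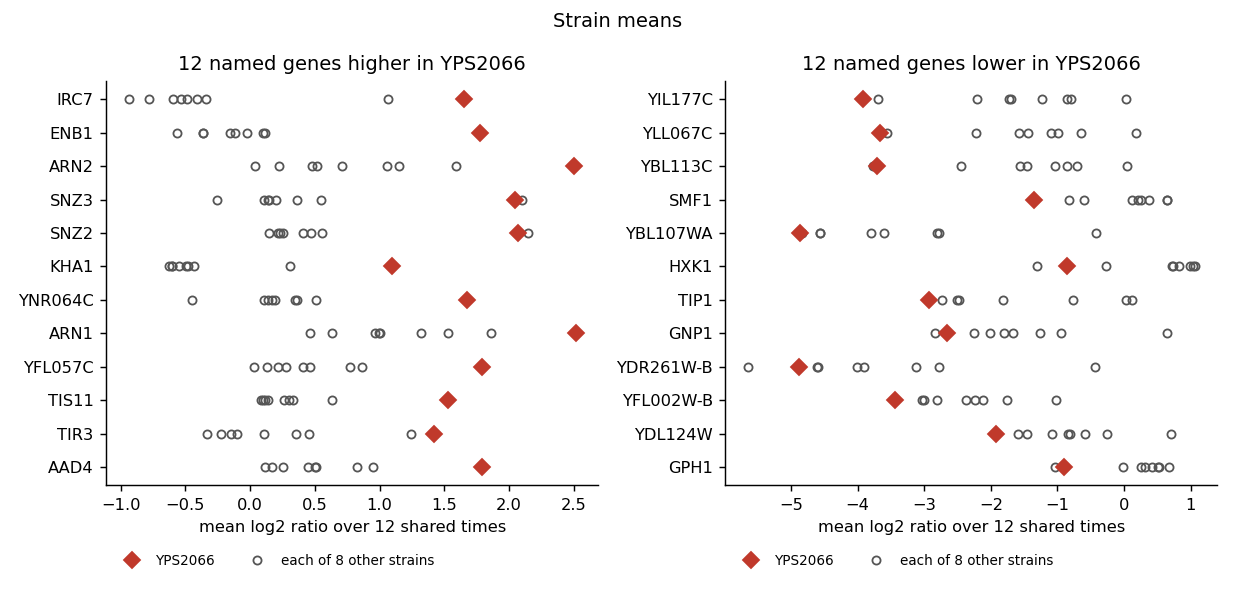
Mean log2 ratio to the reference over the 12 shared times (horizontal axes) for 12 named genes called higher and 12 called lower in YPS2066 (rows). Red diamonds are YPS2066 and open circles the 8 other strains. ENB1 and TIS11 of YPS2066 stand clear of all others. For SNZ2, SNZ3, HXK1, GPH1, TIP1, GNP1, YBL113C and YDR261W-B another strain lies beyond YPS2066.

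Other lists of nutrition and stress were described the same way. Of 22 genes for stress and reserve carbohydrate, 12 were lower by the adjusted p alone, beside 7.63% of all genes, with a median difference of -0.31, and GPH1 alone reached the size for a call. The list mean was -0.05 in YPS2066 and lower in 1 other strain, YPS2055, at -0.12. GSY2, glycogen synthase, differed by -0.84 ± 0.17 and the phosphoglucomutase PGM2 by -0.79 ± 0.18. Of 22 ribosome biogenesis genes, 8 were above all other strains, as were 9.41% of all genes, and the list median was 0.18. Of the 25 sulfate, methionine and cysteine genes only IRC7 was called, with a median of 0.07 for the list. The respiratory chain, with a median of -0.03, and amino acid biosynthesis, with 0.03, had no call in level. The lists of phosphate genes (median -0.04), copper and zinc genes (0.06), amino acid permeases (-0.06) and hexose transport (0.01) lay close to -0.01, the median of all genes. Thiamine and vitamin B6 genes had a median of 0.20, with SNZ2 and SNZ3 the only calls.

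In shape, 57 genes (0.924%) differed from the mean curve of the other strains. Of the 57, 14 were PAU genes of cell wall mannoproteins, 8 iron uptake genes and 4 a-specific genes. PAU20 had 2.13, 1.13, 0.79 and 0.90 at 0, 24, 48 and 63 min in YPS2066 and -0.42 at 87 min. The other strains averaged -0.17 over 0 to 63 min, against 1.24 in YPS2066. Its curve deviated by 2.03 at 0 min (limma adjusted p = 1.02e-12). PAU15 had 1.53 at 0 min and -0.42 at 87 min. Of 24 measured PAU genes, 17 varied with time, beside 6.68% of all genes, and these 17 all had a fitted peak at 0 min. The family was chosen after its values were seen, and its copies share sequence. IRC7 deviated by -2.40 at 24 min, ENB1 by -1.67 at 24 min and TIS11 by -1.38 at 24 min, each being low early relative to its own mean. EMP70, an endosomal membrane protein, deviated by -1.74 at 0 min. TOS6 deviated by 1.50 at 135 min, CHS2 by 1.32 at 301 min and CLB2 by -1.14 at 87 min. OPT1, a peptide transporter, deviated by -1.21 at 0 min.

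Several of these genes thus changed level between the same 2 flasks of YPS2066. From 63 to 87 min, 70 genes rose and 51 fell by at least 1. From 0 to 24 min 148 genes changed in YPS2066 and from 24 to 48 min 119 did, and fewer than 100 changed in each step after 87 min. In every other strain the largest step held more genes, from 209 in YPS2079 to 791 in YPS3060. The largest steps of YPS183, YPS3060 and YPS3137 ran between a sample with older array prints and a sample without them. That of YPS2073, with 664 genes, had older prints at both ends. YPS2055, YPS2060, YPS2067 and YPS2079 have no older prints, as YPS2066. Their largest steps held 366, 293, 409 and 209 genes. The part of the prints in these counts was not tested. At 0, 24 and 48 min MFA1 and PAU20 were high and the iron list low, as at 63 min. The 63 min sample rests on 1 array and the 87 min sample on 2, and the part of this in the step was not tested.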

How the data were processed

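The deposited table holds 1 log2 column per sample for 6172 genes; per the labels, each sample rests on 1 to 5 GenePix arrays (1 or 2 in YPS2066), and the authors' normalization is not stated. The base of the logarithm, the centring and the direction are unstated. Gene identifiers were named through RefSeq's R64 table (5554 directly, 192 after a hyphen was restored, 426 kept as they stand). A further 7 columns matched no sample and were not used. Signal over background was not analysed here, and promoter sequences were not used.

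limma 3.58.1 in R 4.3.3 fitted, in 1 model of all 10 strains, a mean per strain and a natural cubic spline in time (7 degrees of freedom) per strain. Contrasts tested time in YPS2066, its level over 12 shared times, and its shape with the level removed, with Benjamini-Hochberg adjustment over 6172 genes. A call needed an adjusted p under 0.05 and a size of at least 1. Lags were searched over -90 to 90 min in steps of 3 min and stretches from 0.6 to 1.8, by Pearson correlation on at least 9 samples. Python 3.11.15, numpy, pandas and scipy were used for the rest, and the fits were tested on simulated data.

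Named genes were the 20 largest ranges and 4 per peak window, the 12 highest, 12 lowest and 12 largest shape differences, up to 6 members of each cell cycle list and 4 of each other list, all iron uptake genes and 11 landmarks, with at most 3 of a repeated family; 10 further called members of the cycle lists (ALK1, CAC2, CDC21, DBF2, HCM1, HSL1, HST3, NRM1, POL2, TOS4) were named after their values were seen. One list of cell cycle genes is not reported here. The members and lists were chosen with earlier results of these data known. Alternatives covered normalization, array print, dye orientation, spline, sampling sets and each sample or strain left out.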

Additional observations from a re-analysis of the deposited data

Results flagged for a closer look

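A mean of YPS2066 was looked at again where it stood far from the nearest other strain. Its gap, as a share of the range over 9 strains, had to pass Dixon's critical value of 0.493. Chance flags about 1 in 20 groups where any strain may stand apart, but here only YPS2066 was counted. The genes had also been chosen for a large difference, so that rate does not apply to these flags. YPS2066 stood apart for ENB1, with a share of 0.711, TIS11 with 0.620, YNR064C with 0.549, YFL057C with 0.527 and AAD4 with 0.502. The iron uptake list mean stood apart with 0.550. In all, 48 genes and lists were examined and 6 passed. The time course of 57 genes differed in shape between YPS2066 and the mean of the other strains by limma's F test.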

How the results depend on the processing

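With 1 culture, array number and unknown signal over background limit every value. The genes varying with time were 412; 245 under quantile normalization, 729 without samples on older array prints, 183 with both dye orientations alone, 256 with 9 spline degrees of freedom and 627 when alternate times had their own term. The 25 higher genes were 49 at sampling set A (alternate times from 0 min) and 480 by adjusted p alone; the 32 lower genes 55 without older prints, 51 at set A and 471 by adjusted p alone. The 57 shape differences were 30 under quantile normalization, 133 without older prints and 124 by adjusted p alone. Leaving out 1 sample or strain gave 291 to 413 for time, 41 to 58 for shape, 22 to 27 higher and 24 to 56 lower, 56 without YPS2073. Over strain means it gave 0 to 4 higher, 2 without YPS2055 and 4 without YPS2079, and 0 lower.

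The pheromone lag was 24 min on fitted splines. The early G1 lag (30 min) was 3 with both dyes, 0 without older prints or against the 4 strains that have none, and -9 without the 0 min samples. The histone lag (21 min) was -9, -6 and -3 min without older prints, against the 4 strains that have none and with Spearman correlation. The G2/M lag was 30 with both dyes, 27 without older prints, without 0 min, against the 4 strains that have none and with a search to 60 min, and 21 with Spearman correlation. The G2/M peak (300 min) was 231 with 5 spline degrees of freedom, and the early G1 peak (252 min) 39 with 9. Stretches without older prints were 1.8 for pheromone and for budding and 0.94 for histones; with a shift allowed, 1.04 for pheromone and 0.86 for histones and S/G2. The interval between maxima was 192 min for replication with 5 degrees of freedom and 42 min for histones with 9.

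Leave-one-out ranges of lags were -12 to 48 (pheromone), -9 to 36 (early G1), -9 to 24 (histones), -21 to 24 (S/G2) and 27 to 75 min (G2/M). Those of peaks were 0 to 35 (pheromone), 46 to 345 (early G1) and 202 to 301 min (G2/M). Those of stretches were 0.76 to 0.98 (pheromone), 0.94 to 1.2 (early G1), 1.54 to 1.8 (budding), 1.14 to 1.5 (replication), 0.96 to 1.22 (histones), 0.82 to 1.2 (S/G2) and 1.42 to 1.46 (G2/M). The cause of these shifts was not tested. Strains were paired by sampling time, not by culture: with time as a replicate block over the 12 shared times, chosen after seeing the data, 28 genes were higher, 24 of them among the 25, and 33 lower, with all 32 among them.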
